A study of Mus musculus with 8 samples.

Results

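The genes described here are 33 genes of the unfolded protein response and of protein quality control in the endoplasmic reticulum (ER), chosen by symbol from known roles. All 33 have a row among the 34899 genes of the deposited table, and all 33 passed the filter on low values that left 17067 genes to be tested. They were read in RNA-seq of endothelial cells from the lungs of female C57BL6 mice. Cells had been sorted for CD31, the endothelial adhesion molecule encoded by Pecam1, and against CD45, the leukocyte antigen encoded by Ptprc. The groups were HF (4 mice) and LF (4 mice). The labels do not spell out HF and LF, and no age, treatment length or allele is given in the sources used here; the series title places the mice in a study of obesity, neutrophil oxidative stress and metastasis.

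The ER folds proteins bound for membranes and secretion, and endothelial cells secrete matrix, clotting factors and adhesion molecules through it. Unfolded protein is sensed by 3 membrane proteins, PERK (encoded by Eif2ak3), IRE1α (Ern1) and ATF6. PERK phosphorylates eIF2α, which slows translation and favours ATF4. IRE1α splices Xbp1 mRNA, and ATF6 is cut to release a transcription factor. Their targets are chaperones, disulfide isomerases and the machinery of ER-associated degradation (ERAD), which returns misfolded protein to the cytosol. A gene count reads none of phosphorylation, splicing or cleavage, so the values below are transcript levels of the components.

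Known ER stress elements stand in the promoters of several of these genes, most of them chaperones and isomerases. Whether the elements bear on the levels below was not tested. RefSeq promoter windows (GRCm38.p6, 250 bases before to 50 bases after the start) were found for 28 of the 33 genes. The ER stress response element (ERSE) was searched on both strands as CCAAT and CCACG with 9 bases between them. It was present in 8 of these 28 genes (28.6%) and in 37 of all 27025 genes with a window (0.137%). In the lines below, read 5′ to 3′ on the strand of the match, capitals mark the searched letters.
Hspa5: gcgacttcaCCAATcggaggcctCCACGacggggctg (chr2:34772016-34772052, plus strand)
Hsp90b1: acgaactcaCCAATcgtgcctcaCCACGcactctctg (chr10:86705524-86705560, plus strand)
Hsp90b1: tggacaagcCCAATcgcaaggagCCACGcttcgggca (chr10:86705629-86705665, minus strand)
Dnajc3: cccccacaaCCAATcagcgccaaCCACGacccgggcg (chr14:118937818-118937854, plus strand)
Creld2: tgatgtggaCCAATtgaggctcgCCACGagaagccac (chr15:88819511-88819547, minus strand)
Calr: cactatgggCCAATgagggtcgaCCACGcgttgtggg (chr8:84847066-84847102, plus strand)
Canx: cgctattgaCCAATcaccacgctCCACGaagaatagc (chr11:50325791-50325827, minus strand)
Pdia6: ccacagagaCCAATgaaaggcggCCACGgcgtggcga (chr12:17266482-17266518, plus strand)
Syvn1: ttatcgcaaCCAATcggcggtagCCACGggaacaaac (chr19:6046523-6046559, plus strand)

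The second form, ERSE-II (ATTGG and CCACG with 1 base between them), was present in 2 of the 28 genes (7.14%) and in 12 of all genes (0.0444%).
Dnajb11: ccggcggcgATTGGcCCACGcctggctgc (chr16:22857843-22857871, plus strand)
Herpud1: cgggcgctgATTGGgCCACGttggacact (chr8:94386368-94386396, plus strand)

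The C/EBP-ATF response element, to which ATF4 binds in genes of amino acid supply, was searched as TGATGNAAN on both strands. It was present in 4 of the 28 genes (14.3%) and in 1215 of all genes (4.50%).
Trib3: ccgcccggcTGATGtAAacctgagcta (chr2:152344030-152344056, plus strand)
Asns: ccagccacaTGATGaAActtcccgcac (chr6:7693215-7693241, minus strand)
Chac1: tggcaggagTGATGcAAcggcagggaa (chr2:119351039-119351065, minus strand)
Herpud1: ggtgcgggcTGATGcAAcccgccgtgg (chr8:94386307-94386333, minus strand)

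The letters TGACGTGG, a binding site of XBP1 and ATF6, were in 0 of the 28 windows and in 193 of all genes (0.714%). The 250 bases before the start are printed for Hspa5, the gene of the chaperone BiP, and for Eif2ak3, the sensor with the largest difference between groups. The first has its 1 exact match to the ERSE letters in capitals, and the second held no match to the letters searched. Near matches were not searched.
Hspa5: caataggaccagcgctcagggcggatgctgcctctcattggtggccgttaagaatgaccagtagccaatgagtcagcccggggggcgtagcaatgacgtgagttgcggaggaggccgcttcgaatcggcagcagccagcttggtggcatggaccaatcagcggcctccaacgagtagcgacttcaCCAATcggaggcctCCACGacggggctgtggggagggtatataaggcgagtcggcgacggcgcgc (chr2:34771840-34772089, plus strand)
Eif2ak3: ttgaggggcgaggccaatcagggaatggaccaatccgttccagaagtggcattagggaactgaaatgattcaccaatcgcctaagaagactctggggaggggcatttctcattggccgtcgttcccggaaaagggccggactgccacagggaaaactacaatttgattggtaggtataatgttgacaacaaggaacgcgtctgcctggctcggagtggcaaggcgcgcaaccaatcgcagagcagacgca (chr6:70844265-70844514, plus strand)
A match is a description of letters and not of a bound site. The genes were chosen for known ER stress roles, so shares above those of all genes were to be foreseen.

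Values are the normalised counts the authors deposited, which are reads divided by a size factor of each library and not scaled for length. Recovered reads per library were 10631506 to 20781564. LF 1 and LF 2 stood apart from the other 6 libraries on the first principal component of all genes tested (−56.4 and −50.9 against −6.8 to 39.6; 36.1% of the variance). LF 3 and LF 4 stood apart on the second (−38.5 and −34.2 against −1.4 to 29.6; 17.5%). The genes below are therefore also given with the first LF pair (LF 1 and LF 2) left out, and with the second (LF 3 and LF 4) left out. Both fits use the same 4 HF libraries. The pairs were chosen from these same values, so the LF spread in each fit is that of 2 libraries picked for likeness. The p-values and calls of these fits therefore describe the split and are no independent support.

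Of the ER stress genes, 3 were higher in every HF library than in any LF library (3.47% of all genes tested), and 27 had lower levels in LF 1 and LF 2 than in LF 3 and LF 4 (32.3% of all genes). The other 3 (Ern1, Ddit3 and Trib3) had neither pattern. Of the 33 genes, 30 (90.9%) had the higher level in HF on the log2 scale (26 after quantile normalisation, 29 with DESeq2). Their median log2 fold change was 0.25. Over all genes tested, 53.2% had the higher level in HF and the median was 0.02. Among the 3729 genes with a mean of at least 1000 normalised counts, 76.9% were higher in HF, and the median was 0.12. A mean of at least 1000 was reached by 22 of the 33 genes, of which 21 (95.5%; 18 after quantile normalisation) were higher in HF. Here and below, shares of all genes higher in HF are from the limma fit on the deposited values. They were not recomputed after quantile normalisation, TMM rescaling or DESeq2.

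No gene passed an adjusted p of 0.05 in the limma fit, which called 0 of 33 ER stress genes and 0% of all genes tested. At an unadjusted p under 0.05, 5 of the 33 (15.2%) were higher and 0 lower, against 6.36% of all genes higher and 4.67% lower (11% in either direction). The 5 were Eif2ak3, Edem1, Edem3, Dnajc3 and Creld2. The edgeR test on recovered reads called 0 of 33 (0% of all genes), with 4 of 33 at an unadjusted p under 0.05 (11.2% of all genes). DESeq2 on the same reads called 2 of 33, Eif2ak3 and Edem1, beside 2% of all genes with an adjusted p. The authors' deposited table also has 2 of 33 with an adjusted p under 0.05, beside 2.04% of all genes. In that table Eif2ak3 has a log2 fold change of 0.73 with an adjusted p of 0.0127, and Edem1 has 0.53 with 0.0169.

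The summed normalised count of the 33 genes was 121416, 122582, 121635 and 126041 in HF 1 to 4. It was 74844, 85652, 122990 and 145913 in LF 1 to 4. The HF libraries were close to each other and to LF 3, LF 1 and LF 2 were below them, and LF 4 was above. LF 1 and LF 2 were both below LF 3 and LF 4 in 27 of 33 genes (81.8%; 32.3% of all genes, 60.8% of genes with a mean of at least 1000). All HF values lay above LF 1 and LF 2 in 28 of 33 (84.8%; 26.9% of all genes) and above LF 3 and LF 4 in 3 (12% of all genes). The log2 range was narrower in HF than in LF in 28 of 33 (84.8%; 71.2% of all genes, 85.7% of genes with a mean of at least 1000).

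**Figure D1:**
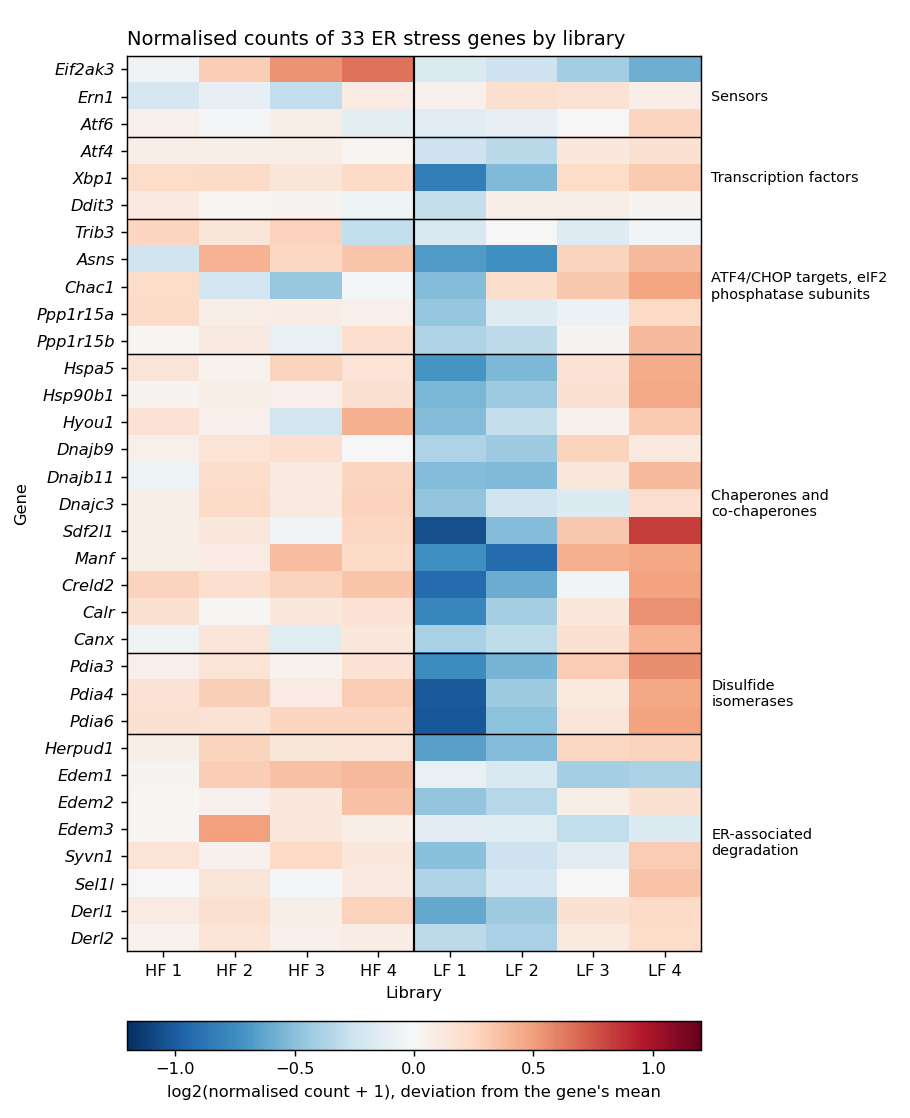
Normalised counts of the 33 genes (rows, ordered by role) in the 8 libraries (columns), as log2(normalised count + 1) minus the gene's mean over libraries. LF 1 and LF 2 are below the mean in most rows and LF 4 is above it, while Eif2ak3, Edem1 and Edem3 have their lower values throughout LF.

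The median log2 fold change of the 33 genes was −0.09 without the first LF pair, with 9 of 33 higher in HF. It was 0.53 without the second LF pair, with 32 of 33 higher. The limma fit called 2 of 33 higher without the first LF pair (6.06%, beside 3.09% of all genes higher and 3.76% in either direction). It called 25 of 33 higher without the second LF pair (75.8%, beside 14% of all genes higher and 20% in either direction). Among genes with a mean of at least 1000, that second fit called 39.8% higher, and 21 of the 22 ER stress genes at that level (95.5%). Edem1 was called in both fits.

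**Figure D2:**
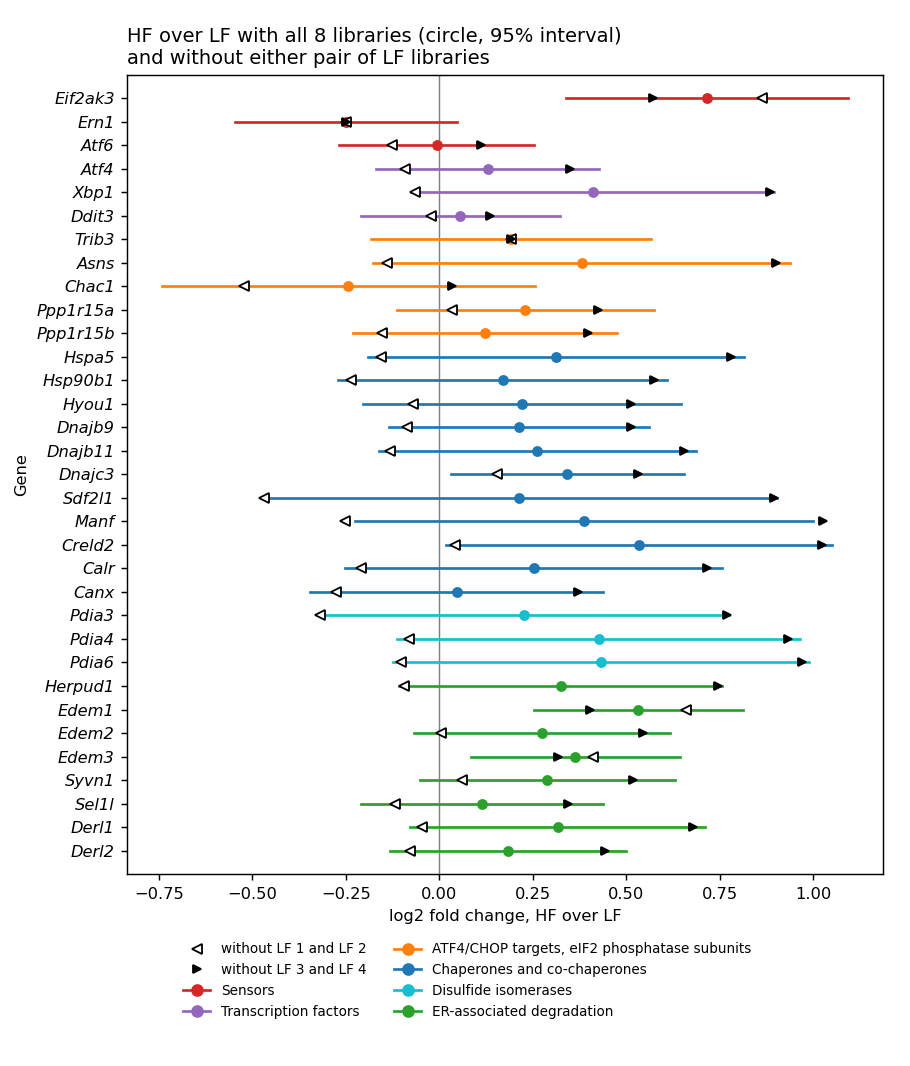
The log2 fold change of HF over LF for each gene with all 8 libraries (circle, with its 95% interval from limma), minus LF 1 and LF 2 (open triangle) and minus LF 3 and LF 4 (filled triangle). For most chaperones, isomerases and degradation genes the open triangle lies at or below 0 and the filled triangle above 0.25; for Eif2ak3, Edem1 and Edem3 both lie above 0.25, and for Ern1 both lie at −0.25.

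The sensors did not move together. Eif2ak3 encodes PERK (ENSMUSG00000031668, chr6:70844515-70905245 in GRCm38, plus strand). It had 294.7, 371.5, 440.1 and 475.8 normalised counts in HF 1 to 4, and 268.4, 254.9, 226.8 and 201.3 in LF 1 to 4. Every HF library was above every LF library, as in 3.47% of all genes tested. Its locus overlaps the gene model Gm43292 on the other strand, whose reads cannot be told apart from its own without a stated strand setting. The means were 395.5 ± 80.0 in HF and 237.9 ± 29.9 in LF (SD, n = 4), a fold of 1.64 (95% interval 1.26 to 2.13; limma adjusted p = 0.167, DESeq2 adjusted p = 0.0194). The fold was 1.82 without the first LF pair (limma adjusted p = 0.0277) and 1.49 without the second LF pair (limma adjusted p = 0.052).

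Ern1 encodes IRE1α, the kinase and nuclease that splices Xbp1 (ENSMUSG00000020715, chr11:106394650-106487852, minus strand). Its normalised counts were 264.2, 284.4, 248.7 and 325.3 in HF, and 316.0, 349.2, 344.2 and 321.2 in LF. HF 4 lay among the LF values and the other 3 HF libraries lay below all of them. The fold was 0.841 (0.684 to 1.03; limma adjusted p = 0.524), and it was 0.84 and 0.841 without either pair of LF libraries. Ern1 was thus lower in mean in HF, with an interval that reaches no change.

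Atf6, the third sensor (ENSMUSG00000026663, chr1:170704674-170867771, minus strand), had 1129, 1073, 1148 and 1003 normalised counts in HF, and 990.7, 1020, 1084 and 1300 in LF. The groups overlapped, and the fold was 0.995 (0.830 to 1.19; limma adjusted p = 0.985). The sensors were low in level: per kb of exon, Eif2ak3 had 52.6 normalised counts over the 8 libraries, Ern1 37.5 and Atf6 118.

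**Figure D3:**
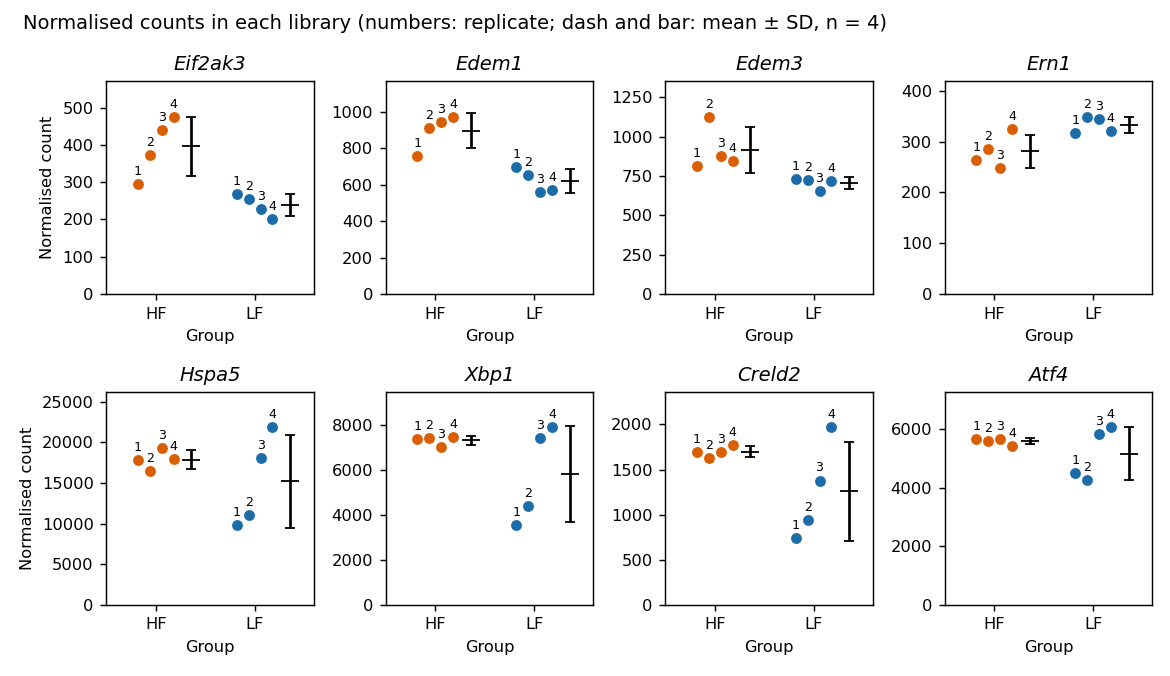
Normalised counts of 8 genes in each library (points, numbered by replicate) with the group mean and SD (n = 4) beside them, on axes from 0. Eif2ak3, Edem1 and Edem3 have all HF points above all LF points; Hspa5, Xbp1, Creld2 and Atf4 have LF 1 and LF 2 below all HF points and LF 4 above them.

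Among the transcription factors, Xbp1 and Atf4 had LF 1 and LF 2 below LF 3 and LF 4, and Ddit3 did not. Xbp1, the target of IRE1α splicing (ENSMUSG00000020484, chr11:5520659-5525893, plus strand), had 7370, 7419, 7022 and 7450 normalised counts in HF. LF 1 to 4 had 3566, 4405, 7400 and 7898. The HF values spanned 0.09 on the log2 scale and the LF values 1.15, with LF 1 and LF 2 low. The fold was 1.33 (0.949 to 1.86; limma adjusted p = 0.524). It was 0.957 without the first LF pair and 1.84 without the second LF pair (limma adjusted p = 0.00227).

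Atf4, the factor translated when eIF2α is phosphorylated, had 5664, 5598, 5653 and 5435 normalised counts in HF, and 4504, 4271, 5833 and 6068 in LF. The fold was 1.09 (0.889 to 1.35; limma adjusted p = 0.73), and its direction turned after quantile normalisation (log2 −0.01). Its HF values spanned 0.06 on the log2 scale and lay between the LF pairs. Ddit3 encodes CHOP, a factor of prolonged ER stress that ATF4 induces. It had 721.5, 677.2, 681.1 and 645.9 normalised counts in HF, and 546.6, 702.0, 702.5 and 681.9 in LF. Apart from LF 1, the 7 libraries were close, and the fold was 1.04 (0.865 to 1.25; limma adjusted p = 0.866; log2 −0.04 after quantile normalisation). Ddit3 overlaps Mars on the other strand, and no source used here gives the strand setting of the counting.

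Of the 5 ATF4 and CHOP targets and eIF2 phosphatase subunits, 4 were higher in mean in HF, and the median log2 fold change was 0.19. Trib3, a pseudokinase induced by ATF4 and CHOP, had 211.4, 194.6, 212.8 and 143.4 normalised counts in HF, and 153.7, 176.4, 157.6 and 171.9 in LF. Its groups overlapped through HF 4, and the fold was 1.14 (0.882 to 1.48; limma adjusted p = 0.685), the same without either pair of LF libraries. Asns, which makes asparagine, had 495.9, 780.3, 692.7 and 734.2 in HF, and 363.6, 349.2, 702.5 and 766.7 in LF. LF 1 and LF 2 were low and the fold was 1.30 (0.884 to 1.92; limma adjusted p = 0.597), with 0.908 without that pair. Chac1, which degrades glutathione, went the other way in mean, with 222.5, 162.6, 138.9 and 189.1 in HF and 133.0, 220.8, 239.9 and 265.8 in LF. Its fold was 0.845 (0.598 to 1.19; limma adjusted p = 0.697) and 1.02 without the second LF pair, so its direction rests on that pair.

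The phosphatase subunits reverse eIF2α phosphorylation. Ppp1r15a encodes GADD34, the inducible subunit, and had 15682, 14049, 14151 and 13954 normalised counts in HF, and 9674, 11958, 12667 and 15691 in LF. The fold was 1.17 (0.925 to 1.49; limma adjusted p = 0.605). The groups overlapped only through LF 4. Per kb of exon it had the highest level of the 33 genes, with 4589 normalised counts. Ppp1r15b, the constitutive subunit, had means of 1574 ± 135 in HF and 1476 ± 374 in LF (SD, n = 4), and a fold of 1.09.

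All 11 chaperones and co-chaperones were higher in mean log2 level in HF, except that Canx turned to −0.04 after quantile normalisation and to −0.0042 with DESeq2. Their median log2 fold change was 0.25, and it was −0.16 without the first LF pair and 0.66 without the second LF pair. In the last fit 10 of the 11 were called higher and Hyou1 was not, beside 14% of all genes and 39.8% of genes with a mean of at least 1000, a level that 9 of the 11 reached. Hspa5 encodes BiP, the main ER chaperone, which also holds the sensors inactive (ENSMUSG00000026864, chr2:34771970-34777547, plus strand). It had 17803, 16472, 19272 and 17961 normalised counts in HF, and 9813, 11027, 18052 and 21876 in LF. HF lay within the LF range, above LF 1 and LF 2 and below LF 4. The log2 fold change was 0.31 (95% interval −0.19 to 0.82; limma adjusted p = 0.627). The fold was 0.898 without the first LF pair and 1.72 without the second LF pair (limma adjusted p = 0.00284).

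Creld2, a disulfide isomerase-like protein induced by ATF6 and grouped here with the chaperones (ENSMUSG00000023272, chr15:88819646-88826683, plus strand), had 1697, 1623, 1699 and 1772 normalised counts in HF. LF 1 to 4 had 744.2, 934.8, 1378 and 1969. Of the LF libraries 3 were below every HF library and LF 4 was above them. The fold was 1.45 (1.01 to 2.07; limma adjusted p = 0.436) and 1.03 without the first LF pair. Dnajc3, a co-chaperone of BiP that also inhibits PERK, had 3363, 3756, 3465 and 3874 in HF, and 2305, 2709, 2855 and 3680 in LF. Its fold was 1.27 (1.02 to 1.57; limma adjusted p = 0.403). It was 1.11 without the first LF pair, so the direction did not turn there. Manf, a secreted ER stress protein, had 1122, 1145, 1382 and 1247 in HF, and 638.1, 560.7, 1432 and 1476 in LF. Its fold was 1.31 (0.856 to 2.0; limma adjusted p = 0.621), with 0.839 without the first LF pair and 2.04 without the second LF pair.

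The other 7 of this role had folds from 1.03 for Canx, a membrane lectin chaperone, to 1.2 for Dnajb11, a BiP co-chaperone. Sdf2l1, a partner of the BiP cycle, had the widest LF range, 1.89 on the log2 scale against 0.29 in HF. Its LF values ran from 197.7 to 733.9 normalised counts around HF values of 402.2 to 491.6. Hsp90b1, the ER member of the HSP90 family, and Calr, a soluble lectin chaperone, had folds of 1.12 and 1.19. Outside the 33 genes, 11 genes with an ERSE were tested, of which 8 were higher in HF. The median of these 11 was 0.11 on the log2 scale. Over all genes tested, 53.2% were higher (median 0.02), and 76.9% of those with a mean of at least 1000 (median 0.12). The 8 ER stress genes with the element had a median of 0.30, beside 0.25 for all 33. These groups were not matched for level, and the part of the element was not tested.

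The 3 disulfide isomerases form and shuffle disulfide bonds. Averaged over each role, their difference between LF 1 and LF 4 was the largest of the 6 roles. The mean log2 deviation of the 3 from their averages was −0.93 in LF 1, −0.49 in LF 2, 0.20 in LF 3 and 0.50 in LF 4, and 0.13 to 0.25 in HF. Pdia6 had 6148, 6108, 6484 and 6504 normalised counts in HF, and 2690, 3853, 6049 and 7596 in LF. Its fold was 1.35 (0.918 to 1.99; limma adjusted p = 0.551) and 1.96 without the second LF pair. Pdia4 had 3220, 3487, 3056 and 3533 in HF, and 1423, 2126, 3114 and 3951 in LF, a fold of 1.34 (0.924 to 1.95; limma adjusted p = 0.548). Pdia3, the partner of calnexin and calreticulin, had 11132, 11977, 11004 and 12057 in HF, and 6306, 7248, 13198 and 15692 in LF. LF 3 and LF 4 were above every HF library, and the fold was 1.17 (0.799 to 1.71; limma adjusted p = 0.743). All 3 had HF values above LF 1 and LF 2, and without that pair the folds were 0.801 to 0.946.

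Among the 8 ERAD genes, Edem1 and Edem3 stood apart from the other 6. EDEM proteins trim mannose from misfolded glycoproteins and mark them for disposal. Edem1 (ENSMUSG00000030104, chr6:108828641-108859356, plus strand) had 756.0, 909.1, 943.4 and 973.6 normalised counts in HF, and 695.4, 652.1, 558.0 and 568.8 in LF. Every HF library was above every LF library. The means were 895.5 ± 96.7 in HF and 618.6 ± 66.3 in LF (SD, n = 4), a fold of 1.45 (1.19 to 1.76; limma adjusted p = 0.167, DESeq2 adjusted p = 0.0258). It was 1.58 without the first LF pair (limma adjusted p = 0.0144) and 1.32 without the second LF pair (limma adjusted p = 0.0447).

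Edem3 (ENSMUSG00000043019, chr1:151755371-151822051, plus strand) had 813.9, 1129, 876.4 and 846.0 normalised counts in HF, and 733.2, 725.1, 652.4 and 715.8 in LF. The groups did not overlap, and HF 2 was the highest. The fold was 1.29 (1.06 to 1.56; limma adjusted p = 0.331, DESeq2 adjusted p = 0.211), with 1.33 and 1.25 without either pair of LF libraries. Eif2ak3, Edem1 and Edem3 were the 3 of 33 genes (9.09%, beside 3.47% of all genes) whose HF values all exceeded the LF values. In 0 of 33 were all HF values lower (1.96% of all genes). In these 3 genes LF 1 and LF 2 were above LF 3 and LF 4, as in 30.9% of all genes and the reverse of 27 other ER stress genes, and the HF range was wider than the LF range. Edem2, the paralog that starts the trimming, had a fold of 1.21 and followed the chaperones instead, at a log2 fold change of 0.01 without the first LF pair.

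The retrotranslocation genes also had LF 1 and LF 2 below LF 3 and LF 4. Herpud1, an adaptor of the ligase complex with both an ERSE-II and a C/EBP-ATF element, had 3228, 3705, 3407 and 3431 normalised counts in HF, and 1962, 2148, 3649 and 3698 in LF. The fold was 1.25 (0.928 to 1.69; limma adjusted p = 0.565), with 0.936 without the first LF pair. Derl1, a derlin of the retrotranslocation complex, had 2563, 2743, 2514 and 2898 in HF, and 1565, 1781, 2723 and 2806 in LF. Its fold was 1.25 (0.948 to 1.64; limma adjusted p = 0.54). Syvn1 encodes the ubiquitin ligase HRD1 and had 1040, 962.5, 1093 and 1016 in HF, and 655.2, 784.2, 845.1 and 1149 in LF. Its groups overlapped through LF 4, and the fold was 1.22 (0.964 to 1.55; limma adjusted p = 0.522). Sel1l, the HRD1 partner, and Derl2 had folds of 1.08 and 1.14, and Sel1l turned to log2 −0.0065 after quantile normalisation.

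**Figure D4:**
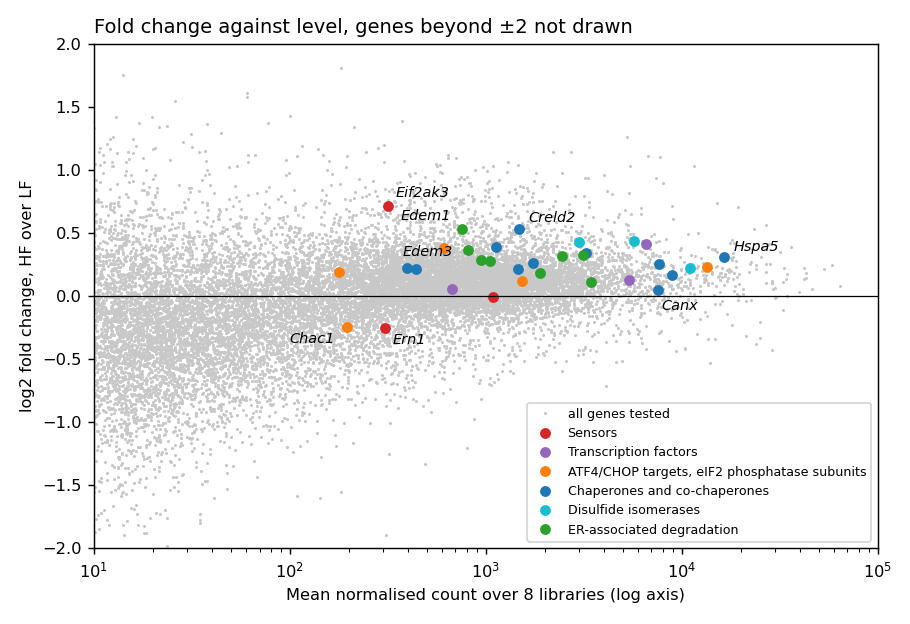
The log2 fold change of HF over LF against the mean normalised count over 8 libraries (log axis) for all genes tested (grey) and the 33 genes (coloured by role). The 33 genes lie mostly at high levels, where the median over all genes is 0.12, and Eif2ak3 and Edem1 lie above most genes of their level.

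By level per kb of exon, the isomerase Pdia3 (3529 normalised counts) and the chaperones Hspa5 (3910) and Calr (2659) were the highest after Ppp1r15a. Atf4 (2281) and Xbp1 (2022) were near them. The neighbours Atf4 and Hsp90b1 (2206) did not differ beyond the spread over LF libraries. Edem1 (117) and Edem3 (127) were far below Herpud1 (1352), and Ern1 was the lowest. The 3 genes that separated the groups were thus among the low part of the order, with Eif2ak3 at 65.6 in HF and 39.5 in LF.

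**Figure D5:**
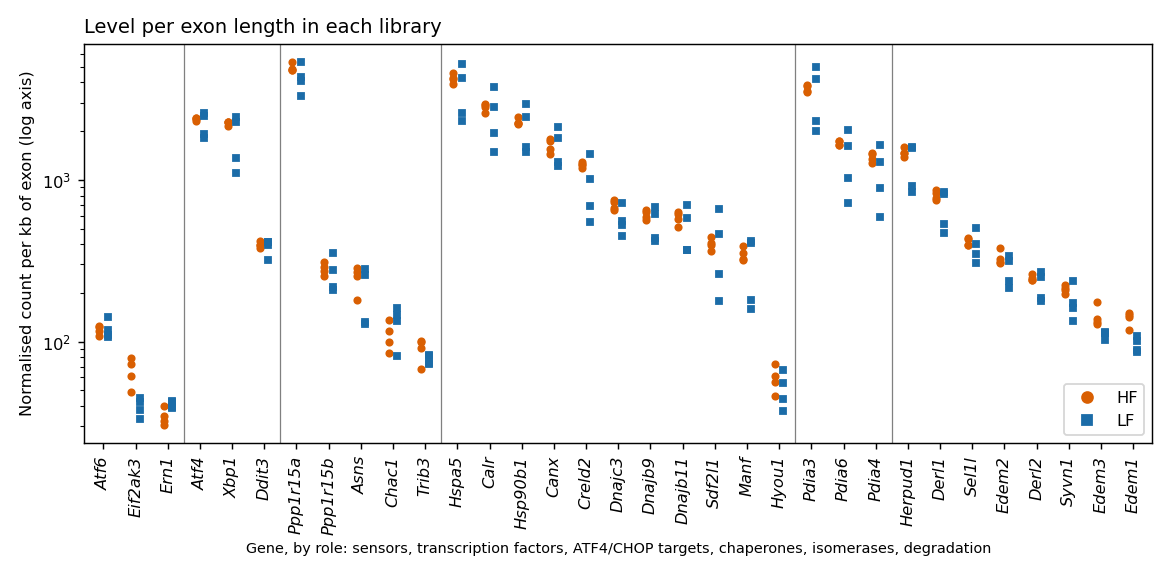
Normalised count per kb of exon (log axis) for each gene in each library, HF as circles and LF as squares, ordered by level within each role. In all 11 chaperones and 3 isomerases the squares of LF 1 and LF 2 lie below the HF circles. The squares of LF 3 and LF 4 both lie above the HF circles in 4 of the 11 and 1 of the 3. The LF squares of Eif2ak3, Edem1 and Edem3 lie below the HF circles.

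Other genes of the same pathways, from lists that hold none of the 33, numbered 105, of which 102 were tested. Of these, 87 (85.3%) were higher in mean log2 level in HF (74 after quantile normalisation, 85 after TMM rescaling). The share was 53.2% over all genes and 76.9% of genes with a mean of at least 1000, a level that 58 reached. The median log2 fold change of the 102 was 0.18 and was −0.05 without the first LF pair. At an unadjusted p under 0.05 in limma, 15 were higher and 4 lower (18.6%, beside 11% of all genes). Adjusted, limma and edgeR called 0 (0% of all genes for each) and DESeq2 called 4 (2% of all genes), Herpud2, Fkbp14 and Rnf139 among them. In 11 genes (10.8%, beside 3.47% of all genes) every HF library was above every LF library.

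Of the 18 other ERAD genes tested, all 18 were higher in mean in HF (15 after quantile normalisation, 17 after TMM rescaling). A mean of at least 1000 was reached by 13, a level at which 76.9% of all genes were higher. An unadjusted p under 0.05 in limma was found for 5 (27.8%, beside 11% of all genes). Herpud2, a paralog of Herpud1, had 1555, 1970, 2041 and 2168 normalised counts in HF, and 1358, 1246, 956.5 and 1102 in LF. The groups did not overlap, and the fold was 1.66 (1.34 to 2.06; limma adjusted p = 0.143, DESeq2 adjusted p = 0.00343). It was called without the first LF pair (1.87; limma adjusted p = 0.00538) and without the second LF pair (1.47; limma adjusted p = 0.0162). Rnf139, an ER ubiquitin ligase, had means of 857.8 ± 144 in HF and 534 ± 121 in LF (SD, n = 4) and a fold of 1.62 (limma adjusted p = 0.179).

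All 19 other folding and disulfide genes were higher in mean in HF (14 after quantile normalisation, 18 after TMM rescaling). Of these, 5 (26.3%, beside 11% of all genes) had an unadjusted p under 0.05 in limma. Fkbp14, a prolyl isomerase of collagen folding, had 493.9, 542.1, 456.6 and 463.2 normalised counts in HF, and 239.1, 272.5, 327.2 and 383.4 in LF. Its groups did not overlap, and the fold was 1.62 (1.27 to 2.06; limma adjusted p = 0.163, DESeq2 adjusted p = 0.0107). Txndc11, a thioredoxin-domain partner of EDEM proteins, had a fold of 1.31 and Mogs, the first glucosidase of N-glycan trimming, 1.61, both without overlap (limma adjusted p of 0.214 and 0.271). Of 25 translocation genes 23 were higher (19 after quantile normalisation), led by Sec63 (1.37) and Stt3b (1.27). Over all genes, 53.2% were higher. At a mean of at least 1000, which 21 of these 25 and 9 of the 19 folding genes reached, 76.9% were higher.

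The remaining 2 lists were mixed. Of 18 other eIF2 and CREB3-family regulators, 12 were higher in HF (11 after quantile normalisation). Eif2b5, a subunit of the exchange factor that phosphorylated eIF2 blocks, had 920.6, 1109, 902.6 and 1134 normalised counts in HF, and 819.9, 803.6, 698.5 and 707.9 in LF. The groups did not overlap (fold 1.34, 1.11 to 1.61; limma adjusted p = 0.232). Nupr1, a stress factor downstream of ATF4, was below LF in every HF library, with 367.8, 268.4, 386.7 and 289.9 in HF and 475.8, 472.9, 414.5 and 434.3 in LF (fold 0.724, 0.578 to 0.906; limma adjusted p = 0.271). Of 22 other ATF4 targets tested, 15 were higher and 7 lower. Gars, glycyl-tRNA synthetase, had a fold of 1.36, while the serine synthesis gene Psat1 had 0.595 and the lipoprotein receptor Vldlr 0.621 (limma adjusted p of 0.244, 0.377 and 0.374).

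Most endothelial markers also had LF 1 and LF 2 below the other LF libraries. Their summed normalised count was 154111 and 171280 in LF 1 and LF 2, 215656 and 253377 in LF 3 and LF 4, and 213325 to 238896 in HF. Of the 15 markers, 14 were higher in HF (12 after quantile normalisation) and LF 1 and LF 2 were both below LF 3 and LF 4 in 12. A mean of at least 1000 was reached by 14 of the 15. Of all genes at that level, 76.9% were higher in HF and 60.8% had that LF pattern. Pecam1 itself had 19425, 19737, 29129 and 33236 in LF and 28252 ± 1063 in HF (SD, n = 4). Cdh5, VE-cadherin, had 13037 ± 196 in HF and 11154 ± 1655 in LF. The part of this in the ER stress genes was not tested. In bulk libraries, fewer cells of a type and less RNA per cell cannot be told apart.

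Markers of secretory cells, which are rich in ER, did not have that pattern. Of 6 plasma and B cell markers tested, 0 were higher in HF. The 10 with a row, tested or not, summed to 803 to 1022 in HF and 1122 to 1221 in LF. Jchain, which was not tested, had at most 13.4 normalised counts in any library. Of 11 alveolar type 2 and airway secretory markers 1 was higher, with sums of 8382 to 14439 in HF and 10881 to 19564 in LF. Sftpc had 5805 ± 1600 in HF and 6628 ± 3020 in LF, and Scgb1a1 had 3117 ± 667 and 4228 ± 1037. Macrophage sums were 3584 to 6463 in HF and 6064 to 7760 in LF, and Ptprc had 166 ± 72.8 and 199 ± 59.0. Fibroblast and mural sums were 2787 to 4851 in HF and 3875 to 7114 in LF, with 0 of 11 markers higher in HF (1 after quantile normalisation). Immediate early genes, which tissue dissociation is known to induce, summed to 252868 to 270497 in HF and 200023 to 268099 in LF. Of these, 18 of 20 were higher in HF (15 after quantile normalisation). A mean of at least 1000, at which 76.9% of all genes were higher, was reached by 16 of the 20. The part of these cells and of handling in the results was not tested.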

How the data were processed

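Per the labels' protocols, TRIzol LS was used for RNA and a SMART-Seq kit for libraries. Aligner STAR 2.6.1b, counter featureCounts 2.0.0 and DESeq2 1.24.0 stand in the submitters' processing notes, with no order. No source used here gives the genome build, annotation or strand setting. The authors deposited 1 normalised count signal per gene and library, and per the file headers its own HF over LF comparison (log2 fold change, Wald score, p-value, adjusted p), read here only where named. Every library column was matched to a sample by its label. Values were whole reads divided by 1 size factor per library: 100% came out whole at a tolerance of 0.01 reads. Amplified reads without molecular identifiers are not independent molecules.

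Testing was limited to genes that reached 10 normalised counts in 4 or more libraries. It used limma 3.58.1 (R 4.3.3) with a trend, on log2 of the normalised count plus 1. Tests were two-sided with no covariate, with Benjamini-Hochberg adjustment over 17067 genes and a threshold of 0.05. Folds are on that scale, which understates changes of low genes. Alternatives were edgeR 4.0.16 and DESeq2 1.42.0 on recovered reads, other pseudocounts, filters, scalings, a replicate block and libraries left out. The code was tested on simulated data. No 2 replicates agreed within sampling noise (chi-square per degree of freedom 9.96 to 50.7). Positions, exon lengths and overlaps came from GENCODE M21 (GRCm38), which held 34873 of 34899 IDs and all 33 genes. By those models 11 of the 33 overlap a gene on the other strand and 2 on the same strand, so their reads may be shared. The p-values of fits on all 8 libraries measure the spread between the 4 mice of a group. In LF that spread holds the gap between the LF pairs (chi-square per degree of freedom 37.3 to 50.7, against 10.4 and 14.5 within them). Fits without an LF pair rest on 2 LF mice, chosen for likeness in these same values.

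The 33 genes and the lists were chosen with earlier results of these data known, so no list was tested. Every sensor and transcription factor was given per library, and in other roles the genes with the smallest p (up to 4) with Hspa5, Trib3 and Herpud1; of other pathway lists, up to 3 with an unadjusted p under 0.05. 1 gene that this rule takes is not reported here.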

Additional observations from a re-analysis of the deposited data

Results flagged for a closer look

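Ddit3 in LF replicate 1 had 546.59 normalised counts, far below the other 3 LF libraries, with a gap to the nearest of 0.868 of the group's range. Ppp1r15a in HF replicate 1 had 15682 normalised counts, above the other 3 HF libraries, with a gap of 0.886 of the range. Both gaps exceed the 95% critical value of Dixon's test for 4 values. These are 2 of 66 groups checked, and chance sets apart about 1 in 20.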

How the results depend on the processing

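With all 8 libraries limma called 0 genes and 0 ER stress genes. DESeq2 called 309 genes, 2 of them ER stress genes, and limma without the filter called 1 gene. Without LF 1 and LF 2, limma called 641 genes and 2 ER stress genes, with 9 of 33 higher and a median log2 fold change of −0.0908. Without LF 3 and LF 4, it called 3421 and 25, with a median of 0.5301. Leaving out 1 library gave 0 to 1 genes called, 0 to 0 ER stress genes called, 27 to 31 of 33 higher and a median of 0.1284 (without LF replicate 1) to 0.4367 (without LF replicate 4). HF and LF libraries of the same number had correlations of −0.222 to 0.185 after the group means were taken off. Libraries of different numbers were not compared, so whether shared numbers pair the libraries was not settled. With the replicate block, 0 genes were called, 30 of 33 were higher and the median was 0.2523.

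Without LF 1 and LF 2, 21 genes turned (log2): Atf4 −0.0908, Xbp1 −0.064, Ddit3 −0.0236, Asns −0.1398, Ppp1r15b −0.1542, Hspa5 −0.1549, Hsp90b1 −0.2361, Hyou1 −0.0699, Dnajb9 −0.0862, Dnajb11 −0.1312, Sdf2l1 −0.4687, Manf −0.2533, Calr −0.2106, Canx −0.2771, Pdia3 −0.3194, Pdia4 −0.0802, Pdia6 −0.1037, Herpud1 −0.0953, Sel1l −0.1175, Derl1 −0.0471 and Derl2 −0.0777. Without LF 3 and LF 4, Atf6 (0.1125) and Chac1 (0.035) turned. Quantile normalisation turned Atf4 (−0.0082), Ddit3 (−0.0439), Canx (−0.0427) and Sel1l (−0.0065), and DESeq2 turned Canx (−0.0042). Leaving out 1 library turned 4 genes, with ranges of −0.0545 to 0.0762 for Atf6, −0.0304 to 0.0901 for Ddit3, −0.1048 to 0.5243 for Sdf2l1 and −0.0757 to 0.1933 for Canx. No other gene of the 33 turned in the alternatives run, and 0 of the 13 other pathway genes that the naming rule takes did. The cause of these changes was not tested. Depth limits Trib3, Chac1, Ern1 and Eif2ak3 most, the 4 genes of the 33 with the lowest mean counts.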
